A study of Mus musculus with 2 samples.

Results

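Mir192, Mir194-1, Mir194-2 and Mir215 are the 4 hairpin genes of a pair of paralogous miRNA clusters, and they were chosen by name from the 1973 gene rows of a microRNA-seq series of mouse liver. The chromosome 19 cluster holds Mir194-2 and Mir192, and the chromosome 1 cluster holds Mir194-1 and Mir215. The series had 1 group and 2 libraries. Replicate 2 was made from liver of 41 embryos at embryonic day 16.5, and replicate 1 from a liver pool of the same age whose number of embryos the labels do not give. Both pools were of strain B6NCrl, of mixed sex and healthy, and the labels name no treatment. With a single group there were no conditions to compare. The questions were how much each locus contributed to the counts of fetal liver, and whether the pools were alike in it. All folds and log2 ratios between libraries are replicate 2 over replicate 1.

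MicroRNAs are cut from hairpin precursors and guide repression of messenger RNAs that pair with bases 2 to 8 of the mature strand, the seed. The miR-192 and miR-215 strands share a seed, and each is made from a transcript that also carries a copy of miR-194. In liver and gut the hepatocyte nuclear factors activate these clusters, miR-192 and miR-194 are typical of hepatocytes, and miR-215 is best known from intestinal epithelium. The miR-194 strand is a marker of epithelial differentiation in both organs. In human cells p53 induces the same miRNAs, which slow the cell cycle. Liver at this stage is a developing metabolic organ and also a major site of blood formation.

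The mature sequences show how the clusters relate and which reads can tell them apart (RefSeq, GRCm38.p6, hairpin records found for 4 of 4 genes). Capitals mark the seed.
mmu-miR-192-5p: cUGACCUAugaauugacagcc
mmu-miR-215-5p: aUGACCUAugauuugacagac
mmu-miR-194-5p: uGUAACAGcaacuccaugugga
mmu-miR-194-1-3p: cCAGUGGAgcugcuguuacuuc
mmu-miR-194-2-3p: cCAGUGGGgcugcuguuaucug
Counted from the 5′ end, mmu-miR-215-5p differs from mmu-miR-192-5p by C1A, A12U and C20A, so 18 of 21 bases are identical and the seed is the same. No other mature miRNA in the table of 1679 carries that seed. The 5′ strand of both miR-194 hairpins is the same molecule, whereas mmu-miR-194-2-3p differs from mmu-miR-194-1-3p by A8G, C19U, U20C and C22G, and the first of these lies in the seed. The seed of mmu-miR-194-2-3p is also that of mmu-miR-6926-5p and mmu-miR-7055-5p, and Mir6926 had 0 counts in replicate 2 and 3 in replicate 1.

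The hairpins show why counts of the miR-194 genes have to be read with care. Capitals mark the mature strands.
Mir215: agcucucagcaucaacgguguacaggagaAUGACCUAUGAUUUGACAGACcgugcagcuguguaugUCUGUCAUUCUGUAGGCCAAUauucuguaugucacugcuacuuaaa
Mir194-1: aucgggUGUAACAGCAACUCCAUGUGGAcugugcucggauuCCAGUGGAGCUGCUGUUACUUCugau
Mir192: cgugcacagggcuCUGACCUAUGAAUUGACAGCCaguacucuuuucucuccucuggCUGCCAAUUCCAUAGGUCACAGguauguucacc
Mir194-2: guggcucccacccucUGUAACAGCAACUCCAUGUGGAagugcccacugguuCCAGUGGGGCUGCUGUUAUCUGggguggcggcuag
The longest stretch that Mir194-1 and Mir194-2 share is 22 bases long and is exactly mmu-miR-194-5p, and the base on either side of it differs between the hairpins. A read of the exact 5′ strand therefore maps to both loci, and reads that map to several places were tallied apart from the gene counts. The counts of Mir194-1 and Mir194-2 can hold 3′ strand reads and 5′ strand reads that extend past a shared end, and they may be too low as levels of miR-194. Mir192 and Mir215 share at most 10 bases in a row, and none of their 18-base words occurs in another listed hairpin, against 10% of the words of Mir194-1 and 7.25% of those of Mir194-2.

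Both clusters are on the plus strand with the miR-194 hairpin first. On chromosome 1 of mm10, Mir194-1 (ENSMUSG00000065581.1) lies at 185313319 to 185313385 and Mir215 (ENSMUSG00000065562.1) at 185313581 to 185313692, with 195 bases between them. Mir194-1 is in an intron and Mir215 overlaps an exon of the noncoding gene 2010103J01Rik on the same strand, and both lie in an intron of Iars2, a mitochondrial isoleucyl-tRNA synthetase gene on the opposite strand. On chromosome 19, Mir194-2 (ENSMUSG00000065582.1) lies at 6264643 to 6264728 and Mir192 (ENSMUSG00000065523.1) at 6264844 to 6264932, with 115 bases between them. No other annotated gene overlaps that pair, and the nearest on its strand is Atg2a, which ends 2307 bases before Mir194-2.

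Mir192, which shares its seed with miR-215, had the most counts of the 4 hairpins in both pools. Reads of the shared miR-194 5′ strand that mapped to several places are not in these counts. The order of the hairpins is therefore not that of the mature miRNAs. It had 21728 counts in replicate 2 and 21201 in replicate 1, which is 4258 CPM (counts per 1000000 gene counts) in replicate 2 and 3575 CPM in replicate 1, and averaged 3917 ± 483 CPM (SD, n = 2). It stood at rank 42 of 1973 genes in replicate 2 and at rank 51 in replicate 1. Mir194-2, its cluster partner, had 8437 counts in replicate 2 and 8667 in replicate 1, which is 1654 CPM in replicate 2 and 1462 CPM in replicate 1, and averaged 1558 ± 136 CPM. Its ranks were 67 in replicate 2 and 74 in replicate 1, so the chromosome 19 pair differed little between the pools and was well above its chromosome 1 paralogs in each.

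Mir215, the intestine-enriched paralog of Mir192, had 1920 counts in replicate 2 and 75 in replicate 1. Its level was 376 CPM at rank 124 in replicate 2, against 12.6 CPM at rank 265 in replicate 1. Replicate 2 alone was high, and the mean of 194 ± 257 CPM (SD, n = 2) describes neither pool. Mir194-1, its cluster partner, had 259 counts in replicate 2 and 83 in replicate 1, which put it at 50.8 CPM and rank 213 in replicate 2 and at 14.0 CPM and rank 256 in replicate 1. In replicate 1 the 2 chromosome 1 hairpins thus had like low counts, and in replicate 2 both were higher, Mir215 by far more. The Mir194-1 count leaves out reads of the shared 5′ strand that mapped to several places. In whole liver, fewer cells of a type and less RNA per cell cannot be told apart. All of these counts lie above the 3 counts that a count of 0 allows (0.588 CPM in replicate 2 and 0.506 CPM in replicate 1).

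**Figure D1:**
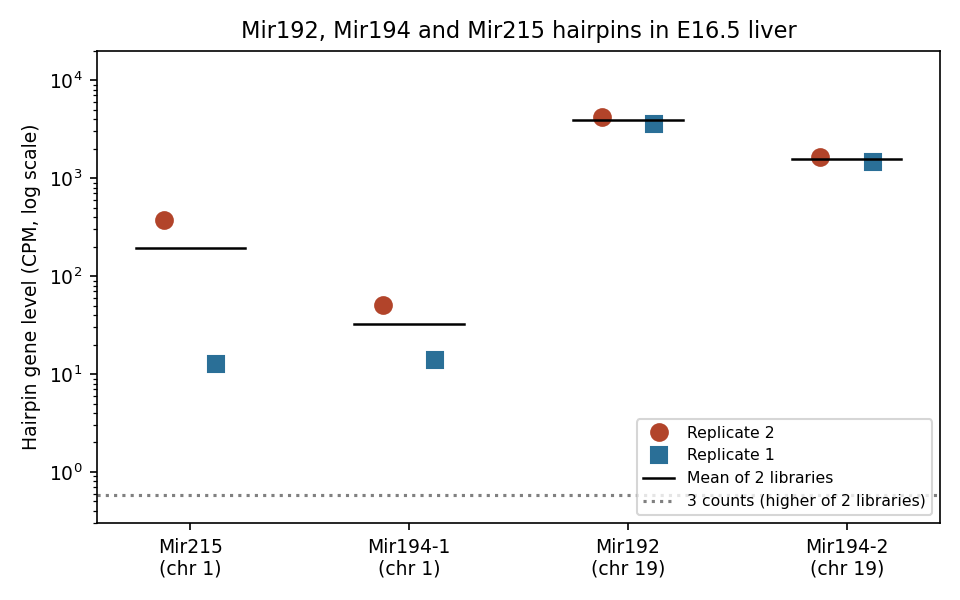
Level of the 4 hairpin genes in CPM on a log scale, with circles for replicate 2, squares for replicate 1 and a line at the mean of the 2 libraries. Each chromosome 19 hairpin lies at nearly the same height in both libraries, whereas Mir215 is at 376 CPM in replicate 2 and 12.6 CPM in replicate 1.

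Neighbours in the order of mean level were picked for a mean close to that of each of the 4 hairpins. Their ranges over the pools all overlapped that of the hairpin, which was likely beforehand and says little. Mir192 at rank 48 stood between Mir1193 (3928 ± 511 CPM) and Mir429 (3624 ± 897 CPM). Mir194-2 at rank 70 stood between Mir206 (1577 ± 669 CPM) and Mir148a (1546 ± 34.4 CPM), another hepatocyte miRNA. Mir215 at rank 152 stood between Mirlet7a-1 (196 ± 1.44 CPM) and Mir195a (189 ± 25.3 CPM), and its range spans both. Mirlet7a-1 is 1 of several copies of its miRNA, so its level is uncertain. Mir194-1 at rank 226 stood between Mir615 (34.8 ± 11.3 CPM) and Mir758 (31.6 ± 4.21 CPM). Mir122, the defining hepatocyte miRNA, had 50.4 times the counts of Mir192 in replicate 2, against 59.7 times in replicate 1.

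Together the 4 hairpins held 0.634% of gene counts in replicate 2 (0.627% to 0.641%, exact Clopper-Pearson 95% limits) and 0.506% in replicate 1 (0.501% to 0.512%), a mean of 0.570% ± 0.090 (SD, n = 2). These limits hold counting error alone, because copies made by PCR may be among the reads. The chromosome 1 pair made up 6.74% of these counts in replicate 2 (6.47% to 7.02%) and 0.526% in replicate 1 (0.448% to 0.615%). These shares differed between the 2 libraries by a two-sided Fisher's exact test, with a log10 p of -435. Mir215 supplied 8.12% of the Mir192 and Mir215 counts in replicate 2 and 0.353% in replicate 1, so the chromosome 19 hairpin gave most of the counts of that pair in both pools. The counts do not separate the 5′ strands, which share a seed, from the 3′ strands, which do not. Mir194-1 supplied 2.98% of the counts of the 2 miR-194 hairpins in replicate 2 and 0.949% in replicate 1. Reads of the shared 5′ strand that mapped to several places are not in these counts, so this is not a share of miR-194 itself. The same limit holds for the shares that sum the 4 hairpins. In CPM the largest gain in replicate 2 was that of Mir192 (683 CPM), followed by Mir215 (364 CPM), Mir194-2 (192 CPM) and Mir194-1 (36.8 CPM).

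Ratios within a library do not depend on scaling, and a mature strand is short enough for 1 read to span, so they were taken on counts and not per length. Mir192 had 2.58 counts for each count of Mir194-2 in replicate 2 and 2.45 in replicate 1, a difference of 0.07 between the log2 ratios (counting SE 0.03). For the chromosome 1 pair the ratio of counts differed between the libraries. Mir215 exceeded Mir194-1 by 7.40-fold in replicate 2 and was at 0.904-fold of it in replicate 1, so the log2 ratio differed by 3.03 (counting SE 0.25). Taken per base of hairpin, the mean log2 ratio of Mir215 over Mir194-1 was 0.63, against 1.37 on counts, and the difference between the libraries was the same 3.03. Between paralogs, replicate 2 held 11.3 times as many counts of Mir192 as of Mir215, against 281 times in replicate 1. Mir194-2 had 32.5 times the counts of Mir194-1 in replicate 2, against 104 times in replicate 1. Folds that involve a miR-194 hairpin may be too high or too low, because reads of the shared 5′ strand that mapped to several places may be missing from its count. Whether reads of 1 miR-194 hairpin were counted at the other was not tested.

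The difference of each ratio between the libraries was tested on its 4 counts with a two-sided Fisher's exact test, Benjamini-Hochberg adjusted over the 4 ratios. The test compares these 2 libraries and not conditions. Adjusted p was 0.00452 for Mir192 over Mir194-2, 1.72e-31 for Mir215 over Mir194-1 and 1.01e-22 for Mir194-1 over Mir194-2. For Mir215 over Mir192 the log10 of the adjusted p was -437. A sign-flip test over 2 libraries cannot give an exact p below 0.5, so the spread between livers at large is not measured.

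**Figure D2:**
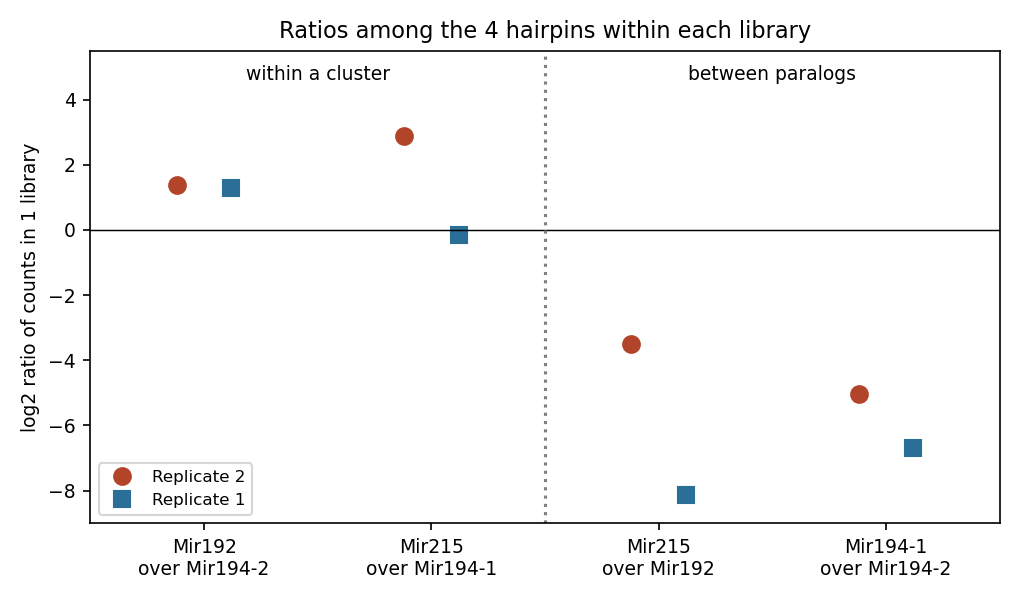
Log2 ratio of counts within 1 library for the 2 pairs in a cluster and the 2 pairs of paralogs, with circles for replicate 2 and squares for replicate 1. Mir192 over Mir194-2 lies at nearly the same height in both libraries (2.58-fold and 2.45-fold), whereas the 3 ratios with a chromosome 1 hairpin differ.

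A gene needed 10 counts in the 2 libraries together to be tested, which 4 of 4 hairpins had. They were all higher in replicate 2 past a two-sided exact binomial test with Benjamini-Hochberg adjustment over 440 genes. In the background 44.5% of the genes tested passed in either direction, 17.5% higher in replicate 2 and 27% lower, so passing says little by itself at this depth. With TMM or DESeq2 scaling 96 genes were higher and 98 lower, against 77 and 119 as scaled here. Mir215 differed by 4.89 on the log2 scale (29.6-fold, counting SE 0.17), and the log10 of its adjusted p was -523. Mir194-1 differed by 1.85 (3.61-fold, counting SE 0.18, adjusted p = 1.04e-27). The chromosome 19 hairpins differed far less, Mir192 by 0.25 (1.19-fold, counting SE 0.01, adjusted p = 3.25e-72) and Mir194-2 by 0.18 (1.13-fold, counting SE 0.02, adjusted p = 3.86e-15).

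Set against other genes, the log2 ratios of Mir192 and Mir194-2 were of ordinary size. Over the 280 genes that averaged at least 10 CPM, the median absolute log2 ratio was 0.21, and 124 genes had a larger absolute ratio than Mir192 and 165 a larger one than Mir194-2. No gene at that level had a larger one than Mir215, and 2 had a larger one than Mir194-1, namely Mir215 and Mir802. Differences of 2-fold or more upward past the test were found in 2.95% of the genes tested, 13 in all, of which Mir215 and Mir194-1 were 2. Of the other 436 genes tested, the largest upward ratio was that of Mir135a-1 (log2 3.68, counting SE 1.23), which had 16 counts in replicate 2, against 1 in replicate 1. The largest downward difference was that of Mir7013, with 0 counts in replicate 2, against 13 in replicate 1.

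**Figure D3:**
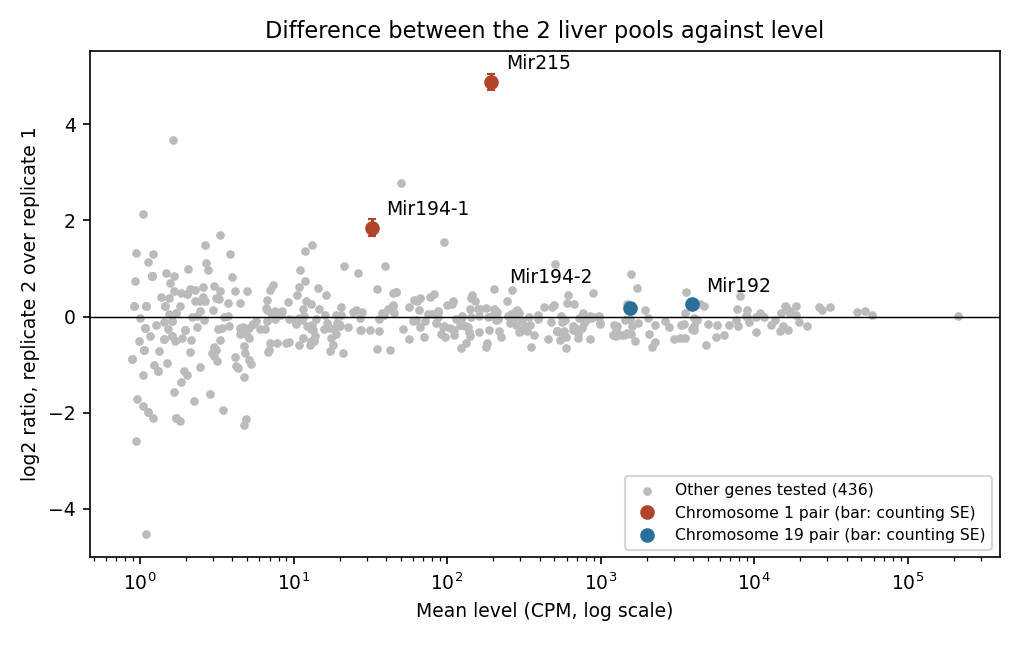
Log2 ratio of replicate 2 over replicate 1 against mean level on a log scale for the 440 genes tested, with the 4 hairpins coloured by chromosome and bars for their counting SE. Mir215 stands apart at 4.89, Mir194-1 lies at 1.85, and Mir192 and Mir194-2 lie within the cloud of other genes.

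Genes most like each hairpin were those with the closest log2 ratio, taken from genes that averaged at least 10 CPM. Likeness over 2 libraries is 1 number per gene. Nearest to Mir215 was Mir802, a miRNA of liver, pancreas and gut, whose log2 ratio of 2.77 differed from that of Mir215 by -2.11. Mir802 had 449 counts in replicate 2, against 76 in replicate 1. Mir141 of the miR-200 family (log2 1.56) and Gm26117 (log2 1.49) were next, and these 2 were also nearest to Mir194-1, at differences of -0.30 and -0.36. Mir7-2, which followed at -0.49 from Mir194-1, is 1 of several copies of its miRNA, so its level is uncertain. Near Mir192 and Mir194-2 many genes had a like ratio. The nearest to Mir192 were Mir872, Mir20b and Mir3071, the last of them 0.0035 away. The nearest to Mir194-2 were Mirlet7a-2, another miRNA of several copies, Mir701 and Mir539, the last of them at -0.014.

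Most genes listed for simple and intestinal epithelium were also higher in replicate 2, and so were some genes of other lists. Their part in the Mir215 and Mir194-1 difference was not tested. All 5 miR-200 family genes, which mark simple and biliary epithelium, passed the exact test upward, beside 17.5% of all genes tested. Passing says little by itself at this depth. Mir200a, Mir200b and Mir429 lie together on chromosome 4, and Mir200c and Mir141 on chromosome 6, so they are not 5 separate findings. Together the 5 genes reached 6376 CPM in replicate 2, against 4266 CPM in replicate 1. Of 4 genes listed for intestinal epithelium and endocrine cells, 3 were higher past the test (Mir802, Mir147 and Mir375) and Mir31 was lower, a call that was lost with TMM and DESeq2 scaling. Mir802 is also known from liver, so it does not mark intestine alone. The lists were chosen with earlier results of these data known, and Mir802 and Mir141 are also the genes named above as nearest to Mir215. These calls are therefore not a separate finding. These 4 genes summed to 2665 CPM in replicate 2, against 1903 CPM in replicate 1. The median log2 ratio was 0.56 for the miR-200 family and 0.75 for the second list, beside -0.08 over all genes tested. None of the 9 genes was at 0 in either library, and their largest ratio, that of Mir802 (6.83-fold), was below the 29.6-fold of Mir215.

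Lists of other tissues gave mixed calls, beside 17.5% upward and 27% downward over all genes tested. With TMM or DESeq2 scaling, 96 of the 440 genes tested passed upward and 98 downward. In the pancreas acinar list 1 of 3 genes passed the test, downward, and with TMM or DESeq2 scaling 1 more passed upward; its sum was 18.6 CPM in replicate 2, against 16.9 CPM in replicate 1, and its median log2 ratio was 0.61. Of 8 muscle genes listed, 7 had a row and 4 were tested, of which 2 passed upward (Mir206 and Mir208b). Mir133b (0.821-fold) and Mir499 (0.989-fold) did not pass. The sum of the muscle list was 2257 CPM in replicate 2, against 1300 CPM in replicate 1, most of it Mir206. This 1.74-fold was the largest fold of sums among the 11 lists, above 1.49 for the miR-200 family and 1.40 for the intestinal list. Mir133a-1 and Mir133a-2 were at 0 in both libraries. They are copies of 1 miRNA, and reads that map to several places were tallied apart, so 0 does not show absence. Kidney is another organ that makes miR-192 and miR-194. In the list of kidney tubule and posterior body genes, 1 of the 4 genes tested passed, downward. That call was lost with TMM or DESeq2 scaling, and 2 genes then passed upward. The sum was 4427 CPM in replicate 2, against 4526 CPM in replicate 1. Of the 2 stratified epithelium genes 1 passed upward, and their sum was 590.1 CPM in replicate 2, against 499.7 CPM in replicate 1.

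Among the genes listed for liver, blood and stroma, the differences were small beside that of Mir215. Over all genes tested, 17.5% passed upward and 27% downward. Of 4 other liver-enriched genes, 3 passed upward with a median log2 ratio of 0.08, and they included Mir122 at a log2 ratio of 0.01, the smallest ratio named here that passed. Mir33, which lies in a sterol-regulator gene and restrains cholesterol export, differed most in that list (1.39-fold), which leaves out Mir802 (6.83-fold). Mir122 made up most of the summed CPM of these 4 genes, at 214555 of 224345 CPM in replicate 2. The summed CPM in replicate 2 was 1.01-fold that in replicate 1. The same fold was 1.13 for 3 erythroid genes, of which Mir144 (1.34-fold) and Mir451a (1.06-fold) passed upward and Mir486 (0.632-fold) downward. It was also 1.13 for 5 mesenchymal genes, most of it Mir143. Of the 4 that were tested 3 passed upward, among them Mir199a-2 (1.95-fold), and Mir214 passed downward (0.738-fold). It was 1.05 for 2 of the 3 leukocyte genes listed, the third having no row. Most of that sum was Mir223, which passed upward, and Mir150 did not pass. Of 5 other genes that p53 induces in human cells, Mir145a passed upward (1.11-fold), Mir107 passed downward (0.781-fold) and 3 did not pass. Mir145a is also among the mesenchymal genes that passed upward. The sum of the 5 genes in replicate 2 was 0.824-fold that in replicate 1. Most of it was Mir107, at 1392 of 1735 CPM in replicate 2.

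**Figure D4:**
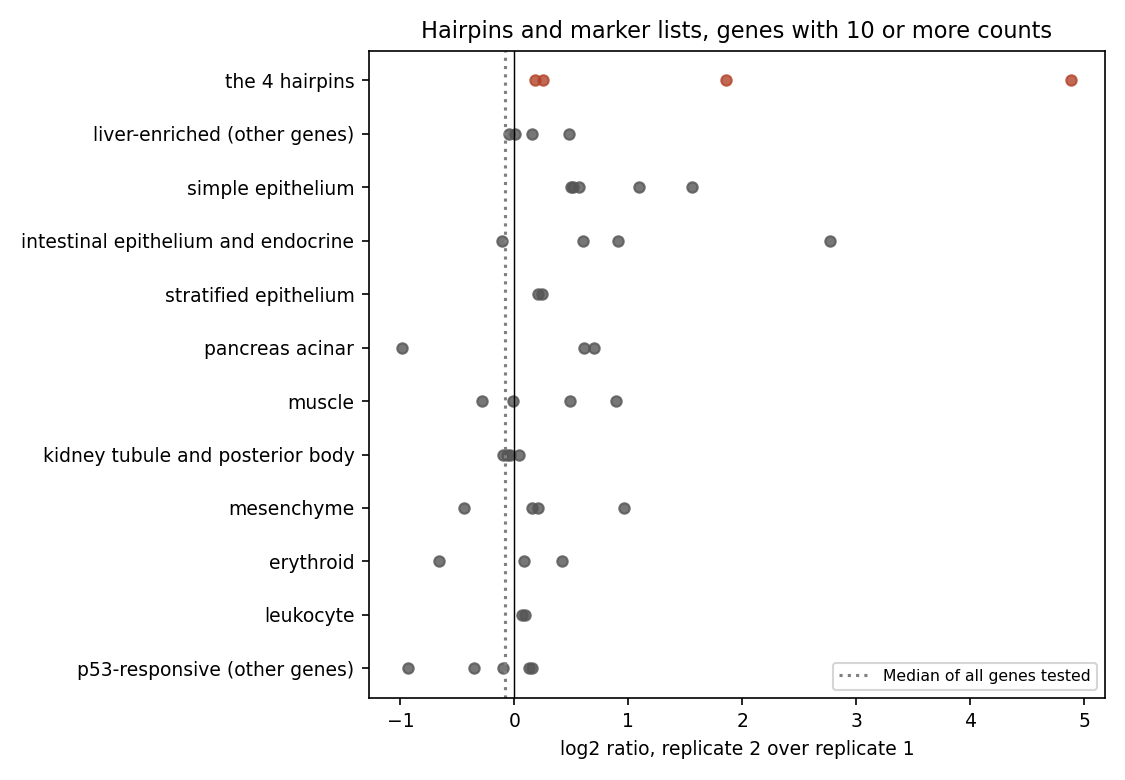
Log2 ratio of replicate 2 over replicate 1 for the 4 hairpins and for each marker list, 1 point per gene that was tested. The dotted line is the median of all genes tested (-0.08), and the hairpin at the far right is Mir215 at 4.89.

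Gene counts on the annotated strand came to 5102289 in replicate 2 (41.9% of the reads tallied) and 5930074 in replicate 1 (42.0%). Reads that mapped to several places made up 28.2% in replicate 2 and 28.1% in replicate 1, and how many of them were miR-194 is not known. On the opposite strand Mir194-1 had 2 counts in replicate 2 and none in replicate 1, and the other 3 hairpins had none in either.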

How the data were processed

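Small RNA of under 30 bases, per the labels, was sequenced from 2 pools of mouse liver. The authors deposited raw counts per gene for each library, on mm10 with GENCODE M4 per the text description deposited with them. The sources used here do not give the aligner, the counting program or any use of molecular identifiers. The 3 count columns have no header. The first equals the sum of the others in every gene row. Of these others, the one with the larger total was used and is taken as the annotated strand. The 4 tally rows stayed out of totals. Counts are per hairpin, so strands of a hairpin are not separated.

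Names and coordinates came from GENCODE M21 by versionless identifier, and sequences from RefSeq (GRCm38.p6). CPM used the gene total. Log2 ratios had 0.5 added to each count. Genes whose counts in the 2 libraries summed to at least 10 were each put to an exact binomial test against the ratio of the library totals. It was Benjamini-Hochberg adjusted, at a threshold of 0.05. On simulated counts with counting error alone, 1.2% of 251 unchanged genes were called. Those counts follow the model of the test, so they do not give its error rate between real pools. An edgeR fit had no contrast in 1 group. edgeR 4.0.16 and DESeq2 1.42.0 gave alternative scalings (R 4.3.3, scipy 1.17.1). Nothing in the labels places the pools in different batches. P-values measure counting error between 2 libraries.

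The genes and the 11 lists were chosen with earlier results of these data known. Genes named beside the 4 hairpins are their neighbours in level, the 3 nearest in log2 ratio, sharers of a seed, Mir122 and list members; Mir135a-1 and Mir7013 were named after their values were seen.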

Additional observations from a re-analysis of the deposited data

How the results depend on the processing

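The 86 alternative values of the main results that kept direction and call came from TMM and DESeq2 scaling, unstranded counts, totals without Mir122 or with all tallied reads, other count filters, pseudocounts, counts per base and single libraries. The log2 ratio ranged from 4.81 to 4.96 for Mir215, 1.80 to 1.93 for Mir194-1, 0.25 to 0.33 for Mir192 and 0.17 to 0.25 for Mir194-2, and 183 to 206 genes differed between the libraries. The exception was the ratio of Mir215 over Mir194-1, with a mean log2 of 1.37: without replicate 2 it was -0.15 and without replicate 1 it was 2.89, so its direction rests on replicate 2. Single libraries gave log2 ratios of 1.29 to 1.36 for Mir192 over Mir194-2, -8.13 to -3.50 for Mir215 over Mir192 and -6.70 to -5.02 for Mir194-1 over Mir194-2, and a chromosome 1 share of 0.526% to 6.74%. Scaling to all tallied reads or without Mir122 moved the mean level of Mir192 to 1642 and 4983 CPM and that of Mir194-2 to 653 and 1982 CPM. The same scalings put the mean of Mir215 at 81.4 and 248 CPM and that of Mir194-1 at 13.6 and 41.2 CPM. No paired analysis was possible because there is 1 group. Depth limits Mir194-1 and Mir215 most in replicate 1, at 83 and 75 counts.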
